A study of Mus musculus with 4 samples.

Results

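The comparison described here is that of wild-type mouse kidneys after ischemia-reperfusion with wild-type kidneys after sham surgery. It is the log2 signal of the array titled WT_IR minus that of the array titled WT_Sham, so it uses 2 of the 4 arrays of the series. Both groups were male C57Bl/6 mice of wild-type genotype at the gene Tet2. The labels give no age and no transgene. The injured kidneys had 60 min of ischemia followed by 24 h of reperfusion, and the sham group had the surgery without it. Each group was 1 array of whole-kidney RNA pooled from 3 mice, so the spread between mice is not known and no test was possible. The measured values were log2 signals of 45037 probe sets, of which 34945 were listed with exactly 1 gene symbol and were used. They stood for 18193 genes, each read from the probe set with the highest mean signal.

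Ischemia stops the blood supply of the kidney, and its return brings a second insult. The proximal tubule, which works almost entirely by oxidative metabolism, is known to be the segment hurt most. Surviving tubule cells lose their specialised transport, take up lipid, re-enter the cell cycle and rebuild the lining over the following days. Small vessels and the supporting stroma between the tubules are damaged as well. Most descriptions of this injury begin with tubular injury markers, and the values below turn to the gene families and pathways around them.

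A signal under the 40th percentile of all signals, 5.72 on the log2 scale, was set to that floor for ratios, while the signals printed here are as deposited. A gene counted as measured where at least 1 of the arrays compared reached it, which held for 13531 genes. A gene was called higher or lower at 2-fold or more. Of the measured genes 279 were called higher, or 2.06%, and 295 lower, or 2.18%, and these shares are the background for every list below. The median log2 ratio of all measured genes was 0.017, and 52.5% of them were above 0. Disagreement between probe sets was judged from genes with several of them over the floor on both arrays. Probe sets of 1 gene differed in their ratios with an SD of 0.24 (log2), over 5614 genes. This SD is one of single probe sets and not of list medians. As these probe sets share the same 2 arrays, it does not cover error between arrays. Where a gene lay at the floor on one array, its fold is a lower limit, marked by the words at least. Ratios below are log2 ratios, injured minus sham, unless a fold is named. In 130 of the genes called higher another probe set was measured, and in 56 of them every such probe set was called higher too. Among genes called lower the numbers were 56 of 120.

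The arrays carried kidney RNA of male mice, as labelled. The kidney androgen-regulated gene Kap had log2 signals of 14.97 after sham and 14.93 after injury, and Umod, which encodes the main protein of normal urine, had 14.52 and 14.52. The Y-linked Kdm5d had 8.09 and 7.94. The sham array differed from the other sham array of the series, labelled Tet2KO, in fat, urothelial and early response genes, so each result was also read with that array as control. That array too held RNA pooled from 3 male C57Bl/6 mice, but its genotype label is another one, so it is no replicate. Its Tet2 signal was 10.25, against 9.84 in wild-type sham. Of the genes called higher 190 were called higher with this control too, or 68.1%, and 1 was at or below 0. Of the genes called lower 201 were called lower, or 68.1%, and 27 were at 0 or above. In whole-kidney RNA, fewer cells of a type and less RNA per cell cannot be told apart.

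**Figure D1:**
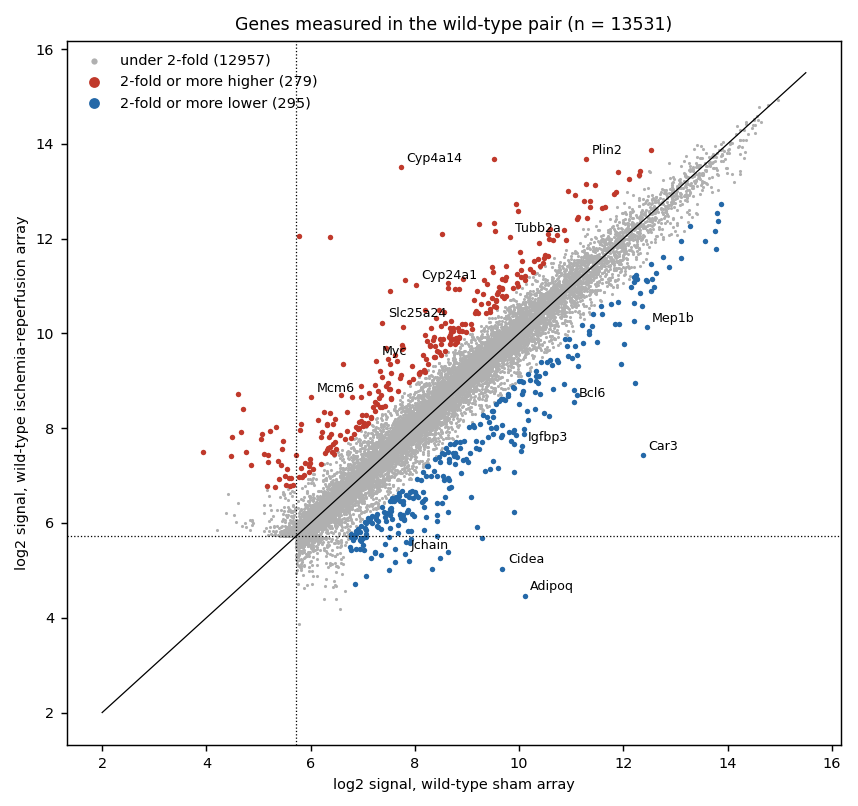
Log2 signals of the 13531 genes measured in the wild-type pair, with the sham array on the x axis and the injured array on the y axis. Each point is a gene, the diagonal marks equal signals and the dotted lines mark the floor; the 279 genes called higher lie above the diagonal and the 295 called lower lie below it, with the fat genes Adipoq and Cidea among the farthest below.

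The standard markers of tubular injury set the scale. Havcr1, which encodes KIM-1, had log2 signals of 9.52 after sham and 13.68 after injury, 17.9-fold higher. Lcn2, the iron-binding protein NGAL, had 6.36 after sham and 12.03 after injury, 50.9-fold higher, and the keratin genes Krt20 and Krt8 were 77.3-fold and 3.69-fold higher. The wild-type sham array stood above the Tet2KO-labelled one for Havcr1, which had 7.002 there, so the increase is larger over that control.

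Genes for copying DNA were higher together. The list of replication licensing and S phase genes had 12 of 41 measured members called higher and 0 lower, against 2.06% of all genes called higher. Its median log2 ratio was 0.62, and 39 members were above 0. The MCM helicase unwinds DNA at origins, and all 10 measured MCM genes were above 0, with a median of 1.21 and 6 called. Mcm6 had log2 signals of 6.01 after sham and 8.65 after injury, which is 6.26-fold higher, with a ratio of 1.25 on its other probe set. Mcm3 had 6.31 after sham and 8.07 after injury, or 3.39-fold higher. Mcm4 stood at 7.24 after sham and 8.90 after injury, or 3.16-fold higher, and Mcm2 at 8.53 after sham and 9.88 after injury, or 2.56-fold higher, with a ratio of 2.06 on its other probe set. Mcm5 was at least 3.26-fold higher and Mcm7 2.09-fold higher, with ratios from 0.90 to 0.99 on 3 other probe sets and 0.72 with the other control. Both Mcm3 and Mcm6 lay just above the floor after sham, and Mcm5 lay below it.

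Loading of the helicase and the checkpoint that guards it followed the same direction. Cdt1, which loads MCM proteins onto origins, had 7.44 after sham and 9.70 after injury, or 4.78-fold higher. Chek1, the S phase checkpoint kinase, was at least 4.13-fold higher, with a ratio of 0.92 on its other probe set. Uhrf1, which brings maintenance methylation to new DNA, was at least 3.44-fold higher, with a ratio of 0.27 on its other probe set. The chromatin remodeller gene Hells was at least 4.59-fold higher, with a ratio of 0.25 on its other probe set. Those 3 genes were at the floor after sham, and their probe sets disagree. Pold4, a small subunit of DNA polymerase delta, went from 8.40 to 10.32, 3.80-fold higher, and Cks1b, a partner of cyclin-dependent kinases, from 7.61 to 9.54, 3.82-fold higher.

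Mitosis genes had a median nearer 0, over the 18 of 26 matched members that were measured. The rest, among them Aurkb, Mki67 and Plk1, lay under the floor on both arrays, so no ratio was read for them. In the S phase list 41 of 43 matched members were measured. The part of this in the difference between the lists was not tested. Of 18 measured members of that list 1 was called higher, the mitotic kinase gene Cdk1 at 5.82 after sham and 7.15 after injury, and 1 lower, the kinesin gene Kif20b at 10.04 after sham and 7.52 after injury. The list's median was 0.19, and -0.0017 with the Tet2KO-labelled sham array as control, where Cdk1 had a log2 ratio of 0.69. Ccnd1, the cyclin that opens G1, had 11.31 after sham and 11.87 after injury, 1.47-fold higher and not called. Among G1 regulators the cyclin D kinase gene Cdk6 was 2.33-fold higher and E2f3, an S phase transcription factor, 2.07-fold higher, with a ratio of 0.22 on its other probe set. With the other control these had log2 ratios of 0.80 and 0.36. The inhibitor genes differed among themselves. Cdkn1a, a p53 target, was 4.001-fold higher, Cdkn1c 4.05-fold lower and Cdkn2b 2.35-fold lower, the last at 0.10 with the other control.

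Promoters of Mcm6, Mcm5 and Mcm3 are shown because MCM genes were higher together. E2F factors are known to switch on S phase genes through the letters TTTNNCGC. These genes were picked by hand. Mcm2, Mcm4 and Mcm7, also called higher, are not shown, and their matches were not listed. The windows run from 250 bases before to 50 after a start in RefSeq, build GRCm38.p6, and capitals mark the motif on either strand. Among 32851 such windows of all genes 5.2% held it, and 7.7% of those of measured genes. Some genes have several windows. Among the windows of the S phase list the share was 36.6% of 41, among genes called higher 10.3% of 291, and among genes called lower 3.5% of 255. Such a match is a description of letters and no proof of binding. Matches were counted on both strands, and overlapping ones separately.
Mcm6, chr1:128359656-128359955, minus strand: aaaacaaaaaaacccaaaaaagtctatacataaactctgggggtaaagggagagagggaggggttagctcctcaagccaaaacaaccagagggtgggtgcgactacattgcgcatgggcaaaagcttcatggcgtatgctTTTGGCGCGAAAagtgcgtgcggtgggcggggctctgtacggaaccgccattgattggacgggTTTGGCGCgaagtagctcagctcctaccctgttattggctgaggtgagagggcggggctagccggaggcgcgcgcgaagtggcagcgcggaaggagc
Mcm5, chr8:75109259-75109558, plus strand: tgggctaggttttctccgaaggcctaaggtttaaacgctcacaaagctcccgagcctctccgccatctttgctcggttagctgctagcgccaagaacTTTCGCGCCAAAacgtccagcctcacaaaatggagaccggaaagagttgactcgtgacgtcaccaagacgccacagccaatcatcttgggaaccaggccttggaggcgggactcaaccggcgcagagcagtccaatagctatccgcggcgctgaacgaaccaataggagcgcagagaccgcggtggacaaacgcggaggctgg
Mcm3, chr1:20820263-20820562, minus strand: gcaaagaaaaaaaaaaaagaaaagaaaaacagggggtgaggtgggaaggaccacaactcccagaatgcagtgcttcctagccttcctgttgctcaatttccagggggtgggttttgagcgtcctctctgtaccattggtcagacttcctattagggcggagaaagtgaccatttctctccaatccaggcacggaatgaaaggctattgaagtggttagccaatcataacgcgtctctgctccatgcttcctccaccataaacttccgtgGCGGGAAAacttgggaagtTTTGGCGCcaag
In these windows the motif was found 3 times for Mcm6, 2 times for Mcm5 and 2 times for Mcm3.

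Genes that build ribosomes were higher by small amounts but nearly without exception. Of 46 measured members of the ribosome biogenesis list 45 were above 0, with a median log2 ratio of 0.56 and the middle of the list between 0.34 and 0.72. At 2-fold 2 were called: Nop56, a core protein of the particles that modify ribosomal RNA, at 8.25 after sham and 9.36 after injury, and Mybbp1a at 9.66 after sham and 10.79 after injury. The nucleolar proteins nucleolin, Ncl, and nucleophosmin, Npm1, had ratios of 0.52 and 0.49. With the Tet2KO-labelled sham array the median was 0.46, and the ratio of Mybbp1a was 0.95. Myc, a transcription factor known for driving ribosome production, was 4.50-fold higher, from 7.26 to 9.42. The E-box letters CACGTG, which Myc binds, stood in 20.5% of 44 promoter windows of this list, in 9.6% of those of measured genes and in 7.2% of all windows. In other lists the share ran from 0.0% for the PDGF and VEGF list to 17.9% of 28 windows for the NAD, haem and iron list. The Nop56 window had 0 matches. A part of Myc in these values was not tested.

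The structural proteins of the ribosome had a median nearer 0 than the factors that assemble it. The cytosolic ribosomal proteins had a median of 0.14, with 22 of 25 above 0 and none past 0.35. Rps3 had a ratio of 0.20, Rps18 the highest and Rps14 the lowest, -0.12. This median is smaller than the SD between probe sets. Aminoacyl-tRNA synthetases, which charge tRNAs with amino acids, and translation factors had 31 of 33 above 0 and a median of 0.36. Eif6, which keeps new large ribosomal subunits from joining too early, had 10.64 after sham and 11.97 after injury, 2.501-fold higher. Sars had 10.01 after sham and 10.58 after injury and was 1.48-fold higher, under the call. Wars, the tryptophan enzyme, had -0.27, with ratios from 0.18 to 0.56 on 3 other probe sets. RNA splicing factors had a median of 0.15 over 30 genes and no call. Srsf1 and Srsf2, which bind splicing enhancers, had ratios of 0.16 and 0.063, Hnrnpd the highest, 0.78, with a ratio of -0.0028 on its other probe set, and Srsf5 the lowest, -0.33.

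Nuclear transport, protein folding and protein breakdown had medians a little above 0. The list of nuclear import, export and chromatin genes had 27 of 28 members above 0, a median of 0.40 and none past 2-fold. Its largest member was the importin gene Ipo5, at 9.47 after sham and 10.33 after injury. The nuclear import adaptor Kpna2 and the exporter Xpo1 had ratios of 0.61 and 0.67, and the lowest member, Nup54, -0.019. Over whole families, the medians were 0.34 for 19 nucleoporins, 0.30 for 21 importins and exportins and 0.35 for 9 subunits of the TCP1 chaperonin, which folds actin and tubulin. Of 38 proteasome subunits 36 were above 0, with a median of 0.33 and none called. Psmb5, a catalytic subunit, had 11.80 after sham and 12.27 after injury, 1.39-fold higher. Psma1 had a ratio of 0.34. In the wider list the muscle ubiquitin ligase gene Trim63 was 3.50-fold lower, and Sqstm1, an autophagy receptor, 2.19-fold higher, with a ratio of -0.032 on its other probe set and 0.48 with the other control. These medians are of the size of the SD between probe sets, and the counts above 0 are to be read beside the 52.5% above 0 among all genes. The genes of a list are not independent replicates, and all of them share the same pair of arrays.

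**Figure D2:**
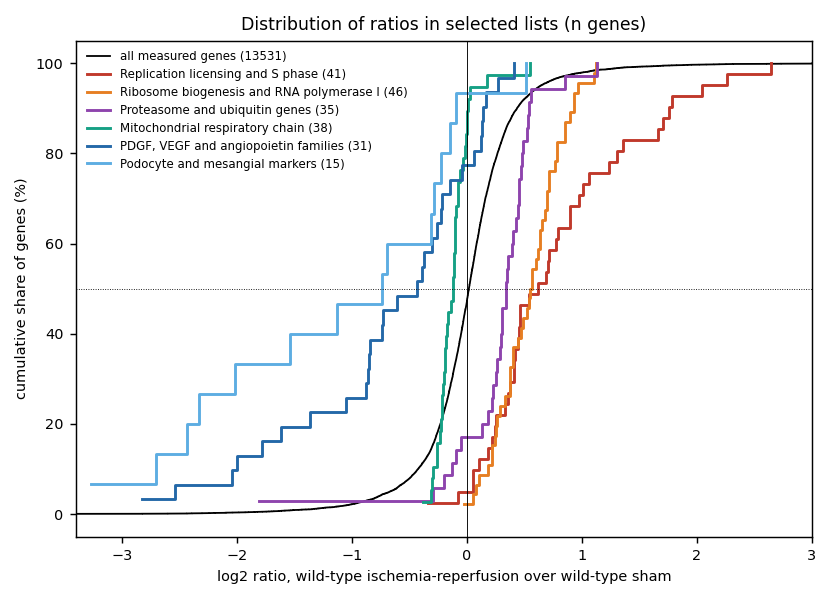
Cumulative share of genes, in percent, against the log2 ratio of injured over sham, for all measured genes and 6 lists. The S phase and ribosome biogenesis curves lie right of the black curve over most of their length, the respiratory chain rises steeply at -0.12, and the growth factor and podocyte curves reach far to the left.

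Supply of nucleotides had a median of 0.36 over 29 genes, with 3 called higher and 0 lower. Ctps, which makes CTP, had 9.50 after sham and 11.29 after injury, 3.46-fold higher. Rrm2, the regulated subunit of ribonucleotide reductase, had 6.32 after sham and 8.08 after injury, 3.38-fold higher, with ratios from 0.73 to 1.81 on 2 other probe sets. Pgd, an enzyme of the pentose phosphate pathway, had 9.47 after sham and 10.76 after injury, 2.43-fold higher. Transketolase, Tkt, of the same pathway, was 1.37-fold higher and not called. Rrm2 stood at 7.34 in the Tet2KO-labelled sham array, which gives a log2 ratio of 0.74 and no call.

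Some genes of oxidant defence were higher and others near 0. The transcription factor NRF2 turns on target genes under oxidative stress. The list of such targets also holds related genes, such as Nfe2l2, which encodes NRF2, and its inhibitor Keap1. It had 8 of 26 members higher and 1 lower, and the list median was 0.22. Below 0 were 8 members, among them Me1 at -0.57. Srxn1, which repairs oxidised peroxiredoxins, had 8.92 after sham and 11.16 after injury, 4.73-fold higher, with ratios from 0.41 to 1.80 on 3 other probe sets. The carbonyl reductases followed, Cbr3 at 6.57 after sham and 8.70 after injury, 4.36-fold higher, and Cbr1 at 9.30 after sham and 10.83 after injury, 2.88-fold higher. Akr1b8, an aldo-keto reductase, had 7.75 after sham and 9.67 after injury, 3.77-fold higher, and the quinone reductase Nqo1 had 9.39 after sham and 11.04 after injury, 3.13-fold higher. Txnrd1, thioredoxin reductase, was 2.10-fold higher, with a ratio of 0.055 on its other probe set, and had a log2 ratio of 0.76 with the other control. Haem oxygenase, Hmox1, was at the floor after sham and at least 2.67-fold higher, with 0.98 for the other control, just under the call. The small MAF gene Maff, whose protein pairs with NRF2, was 3.10-fold higher. Gclm, which helps make glutathione, was 1.38-fold higher and not called, while the glutathione peroxidase gene Gpx6 was 2.92-fold lower, from 9.55 to 8.01. The antioxidant response letters TGACNNNGC stood in 29.0% of 31 promoter windows of this list, in 14.2% of those of measured genes and in 12.4% of all windows. Other lists had like shares, 31.6% for the ATF4 and serine list and 26.9% for the PDGF and VEGF list, and the Nqo1 window had 0 matches.

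Metallothioneins, small proteins that hold zinc and copper, were both higher. Mt2 had 11.07 after sham and 12.91 after injury, 3.58-fold higher, and Mt1 11.86 after sham and 12.98 after injury, 2.17-fold higher. They lie next to each other on chromosome 8. Zinc is known to induce them through metal response elements, with the core letters TGCGCNC or TGCACNC, and their promoters are shown with those letters, on either strand, in capitals.
Mt1, chr8:94178839-94179138, plus strand: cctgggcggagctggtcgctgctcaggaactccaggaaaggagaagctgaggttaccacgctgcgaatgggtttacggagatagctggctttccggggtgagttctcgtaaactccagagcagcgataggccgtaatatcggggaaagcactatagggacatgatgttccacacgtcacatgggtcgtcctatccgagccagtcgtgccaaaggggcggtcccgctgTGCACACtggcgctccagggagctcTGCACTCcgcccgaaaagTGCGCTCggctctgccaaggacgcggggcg
Mt2, chr8:94172368-94172667, plus strand: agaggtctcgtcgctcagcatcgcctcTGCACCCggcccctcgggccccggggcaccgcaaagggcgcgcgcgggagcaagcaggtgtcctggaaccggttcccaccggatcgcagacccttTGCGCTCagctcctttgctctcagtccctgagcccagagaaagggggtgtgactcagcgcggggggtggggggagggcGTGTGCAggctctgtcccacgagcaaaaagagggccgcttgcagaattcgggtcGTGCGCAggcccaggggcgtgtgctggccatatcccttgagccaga
The core was found 3 times in the Mt1 window and 4 times in that of Mt2, while 34.7% of the windows of measured genes and 25.7% of all windows held it at least once. In the list of NAD, haem and iron genes, 4 of 27 members were higher, among them biliverdin reductase Blvrb at 8.85 after sham and 9.91 after injury. The zinc importer gene Slc39a8 was 2.29-fold lower, at 10.92 after sham and 9.72 after injury.

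Other stress pathways differed in part. Of 18 measured ATF4 targets and serine synthesis genes, which answer amino acid shortage and endoplasmic reticulum stress, 3 were higher and 2 lower, and the list median was 0.18. Psat1, an enzyme of serine synthesis, had 9.61 after sham and 10.99 after injury, 2.59-fold higher. Asparagine synthetase, Asns, had 7.73 after sham and 9.13 after injury, 2.63-fold higher, yet its signal was 9.28 in the Tet2KO-labelled sham array, so that the ratio with that control was -0.15. The translation repressor gene Eif4ebp1 was 2.60-fold higher, with ratios from 0.085 to 1.38 on 2 other probe sets. Nupr1 was 4.48-fold lower, from 10.48 to 8.31, but 0.45 with the other control. Ddit4, a brake on mTOR, was 2.07-fold lower, with -0.24 for the other control, and Phgdh, the first enzyme of serine synthesis, had a ratio of 0.34, with ratios from -0.042 to 0.22 on 3 other probe sets. Chaperones had a median of -0.092, with 1 of 35 called, the small heat shock gene Hspb1 at 10.38 after sham and 11.90 after injury, 2.87-fold higher. Hspa5, the main chaperone of the endoplasmic reticulum, differed by a log2 ratio of 0.14. The heat shock gene Hspa1b had a ratio of -0.46 over wild-type sham but 1.57 over the Tet2KO-labelled sham array, past the call in the other direction. The lowest chaperone was its neighbour Hspa1a, at -0.72, or 0.74 with the other control. The hypoxia list had a median of 0.018, with the vasodilator gene Adm 2.34-fold higher, Ppp1r3c, a glycogen targeting subunit, at least 2.84-fold lower and Lox, which crosslinks collagen, 2.12-fold lower, with a ratio of -0.30 on its other probe set. All 3 were under the call with the other control, at 0.38, 0 and -0.70. Car9, a classic hypoxia target, had a ratio of 0.016. Lysosome, autophagy and endocytosis genes had a median of 0.04 over 33 genes and no call. The endocytic receptor genes of the proximal tubule, megalin Lrp2 and cubilin Cubn, had -0.74 and -0.17, the former with ratios from -0.40 to 0.059 on 2 other probe sets, and the highest member was the cathepsin gene Ctsc, at 0.69.

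The list of fatty acid oxidation genes and targets of the fatty acid sensor PPAR alpha held genes called higher beside others near 0. Of its 32 measured members 8 were higher and 0 lower, 25 were above 0, and the list median log2 ratio was 0.36. Plin2, which coats lipid droplets, had 11.28 after sham and 13.67 after injury, 5.24-fold higher. Vnn1, a pantetheinase, had 11.90 after sham and 13.40 after injury, 2.82-fold higher. Acsl4 and Acsl5, which activate fatty acids, were 3.26-fold and 2.23-fold higher. Acaa1b, of peroxisomal oxidation, was 2.54-fold higher. The acyl-CoA thioesterases were all above 0, 11 genes with a median of 0.39, and 3 of them were called: Acot2 at 9.60 after sham and 10.88 after injury, Acot3 at 8.51 after sham and 9.77 after injury and Acot1 at 9.58 after sham and 10.83 after injury. With the Tet2KO-labelled sham array these lay at 0.94, 0.93 and 0.77, under the call. Ppara itself had 9.46 after sham and 10.17 after injury, or 1.64-fold higher and not called, with ratios from -0.15 to 0.24 on 2 other probe sets. Cpt1a, the gate of fatty acids into mitochondria, had 11.96 after sham and 12.03 after injury. Other members did not follow the called ones: Pdk4 had a ratio of -0.17, Angptl4 0.19, Acadm -0.35 and Crot -0.66. A part of PPAR alpha in these values was not tested. The list of other enzymes of lipid droplets and phospholipids had a median of 0.045. In it G0s2, which inhibits fat breakdown, was 2.72-fold higher, Sptlc2, of sphingolipid synthesis, 2.13-fold higher, with ratios from -0.088 to 0.21 on 2 other probe sets, and the triglyceride enzymes Dgat1 and Dgat2 had log2 ratios of -0.079 and 0.095.

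Several apolipoprotein and aldehyde dehydrogenase genes were called. The apolipoprotein genes Apoc3, at 9.99 after sham and 12.59 after injury, and Apoa1, at 6.42 after sham and 8.09 after injury, were 6.08-fold and 3.17-fold higher, the latter with ratios from 1.65 to 2.80 on 3 other probe sets. Apoa4, of the same gene cluster, had 7.53 after sham and 10.89 after injury, 10.3-fold higher. Aldh1a7 had 9.55 after sham and 12.15 after injury, 6.10-fold higher, and its neighbour in the family Aldh1a1, which makes retinoic acid, 8.69 after sham and 10.26 after injury, 2.99-fold higher. Over the 18 measured aldehyde dehydrogenases the median was -0.01, with 2 higher and 1 lower. The lower one, Aldh1a3, was at least 2.43-fold lower, with a ratio of 0 for the other control, where both arrays are at the floor. Smpdl3b, a membrane phosphodiesterase gene, had 8.64 after sham and 11.07 after injury, 5.38-fold higher.

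Sterol synthesis showed no common shift. Over 17 enzymes of the pathway the median was -0.023. Cyp51, the sterol demethylase, was 3.31-fold lower, from 11.92 to 10.19, and Idi1 2.21-fold lower, while the first committed step, Hmgcs1, differed by 0.11. Fads2, a fatty acid desaturase, was 3.01-fold lower, with ratios from -0.75 to -0.56 on 2 other probe sets.

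Drug and xenobiotic metabolism went both ways. Of 25 cytochrome P450 genes 2 were higher and 5 lower, and the list median was -0.35. Cyp4a14, a fatty acid hydroxylase and PPAR alpha target, had 7.73 after sham and 13.51 after injury, 54.7-fold higher. Cyp24a1, which inactivates vitamin D, had 8.03 after sham and 11.02 after injury, 7.996-fold higher. Cyp2j13 was 2.36-fold lower, at 11.90 after sham and 10.66 after injury, and Cyp2j11 2.03-fold lower, at 12.25 after sham and 11.22 after injury; both belong to a family that oxidises arachidonic acid. Cyp7b1, which hydroxylates sterols, was 3.07-fold lower, and Cyp1b1 2.54-fold lower. Cyp2e1 and Cyp4b1 had log2 ratios of -0.51 and -0.31. Among conjugating enzymes Gsta2 and Mgst1, which attach glutathione, were 6.96-fold and 2.95-fold higher, at 9.93 after sham and 12.73 after injury for the first and 11.24 after sham and 12.80 after injury for the second, and Gstm2 3.72-fold lower. Gstm5 was 2.24-fold higher, and Gstm2 had -0.88 with the other control. Gsta2 stood at 11.79 in the Tet2KO-labelled sham array, which brings its ratio from 2.80 to 0.94. Gsta4 was 2.15-fold lower, but 0.10 with that control. The conjugation list as a whole had a median of -0.14. 

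Eicosanoid and renin-angiotensin genes had a median of -0.25 over 20 genes, with 2 lower. With the Tet2KO-labelled sham array the median was -0.015. Ptger3, a prostaglandin E receptor, was 2.28-fold lower, with a ratio of -0.40 on its other probe set. Ephx1, the microsomal epoxide hydrolase, was 2.02-fold lower but 0.0035 with the other control. The cyclooxygenase gene Ptgs2 had a ratio of -0.05, and 0.62 with the other control.

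Transport genes of the proximal tubule were called in both directions, and their lists differed. Organic ion and drug transporters had 6 of 30 members lower and 1 higher, and the list median was -0.38. In the SLC22 family 5 of 21 genes were called lower and none higher: Slc22a22, a prostaglandin transporter, at 11.84 after sham and 10.20 after injury, Slc22a26 at 9.55 after sham and 8.03 after injury, Slc22a7 at 12.56 after sham and 11.15 after injury, Slc22a30 at 12.76 after sham and 11.61 after injury and Slc22a19 at 12.21 after sham and 11.09 after injury. The main organic anion uptake genes did not follow them. Slc22a6, known as OAT1, had 12.48 after sham and 12.91 after injury, and Slc22a8, known as OAT3, 11.29 after sham and 10.79 after injury, the latter with a ratio of 0.33 on its other probe set. Slco4c1, an organic anion transporter, was 3.84-fold lower, and the efflux pump gene Abcb1b 2.11-fold higher. With the other control Slco4c1 had a ratio of -0.74.

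Phosphate and anion carriers moved apart. The brush border phosphate transporter gene Slc34a3 was 3.05-fold lower, at 9.67 after sham and 8.07 after injury, and the main one, Slc34a1, 1.81-fold lower and not called. Slc34a2, the form better known from lung and gut, went from 7.78 to 10.14, 5.16-fold higher, and the housekeeping phosphate carrier Slc20a1 from 9.47 to 11.41, 3.83-fold higher, with a ratio of 0.035 on its other probe set. The sulfate transporter gene Slc13a1 was 2.08-fold higher, with a ratio of 0.55 on its other probe set, and the lactate carrier Slc16a1 2.09-fold higher. Slc26a6, an oxalate and chloride exchanger, was 2.30-fold higher, with 0.93 for the other control. The sodium-proton exchanger Slc9a8 was 4.73-fold lower, with a ratio of -0.83 on its other probe set. The list of these carriers had 4 members higher and 2 lower of 27, and the list median was 0.048. Slc5a2, the main glucose transporter, had 12.37 after sham and 11.89 after injury.

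Amino acid transporters had a median of -0.18, or 0.053 with the Tet2KO-labelled sham array as control. Slc7a13, a transporter of the last proximal segment, had 13.77 after sham and 11.79 after injury, 3.96-fold lower. Slc6a19, the main neutral amino acid carrier, had a ratio of -0.61 and Slc7a9, of cystine uptake, 0.14. The other calls were Slc38a3, a glutamine transporter that rises in acidosis, 2.46-fold higher, with a ratio of 0.32 on its other probe set, and Slc36a2 at least 2.33-fold lower, but 0 with the other control. The calcium-activated carrier Slc25a24, which exchanges ATP-Mg for phosphate across the mitochondrial membrane, had 7.38 after sham and 10.22 after injury, 7.19-fold higher. Over the 39 measured mitochondrial carriers the median was 0.016. Salt and potassium handling of the distal nephron had 1 of 25 members called, Egf, and a median of -0.085. Slc12a1 and Slc12a3, the salt transporters blocked by loop diuretics and by thiazides, had ratios of -0.79 and -0.36. Among genes of acid-base handling the membrane carbonic anhydrase Car4 was 3.20-fold lower, from 11.49 to 9.81, and Car15 2.15-fold higher, with 0.41 for the other control. The anion exchanger Slc4a1 and the proton pump subunit Atp6v1b1 of intercalated cells had ratios of -0.61 and -0.39.

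Genes for mitochondrial respiration differed little but in the same direction. Of 38 respiratory chain genes 34 were below 0, none was called, and the median was -0.12. Over whole families 29 of 35 complex I subunits and 15 of 17 ATP synthase subunits were below 0, with medians of -0.14 and -0.16. In all measured genes 47.3% were below 0. These medians are smaller than the SD between probe sets. They lay between -0.14 and -0.094 for the list over all 8 alternative settings. Cox4i1, a subunit of cytochrome oxidase, had 14.02 after sham and 13.81 after injury, and Ndufa4 had a ratio of -0.10. The lowest member was Sdhc, at -0.38, and the highest Cox7c, at 0.55. Proteins of mitochondrial import and translation had a median of 0.12, with Mrps18b, of the mitochondrial ribosome, 2.06-fold higher and 0.88 with the other control. The outer membrane import genes Tomm20 and Tomm40 had ratios of 0.19 and -0.20.

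Breakdown of amino acids had a median of -0.27, with 25 of 32 members below 0, 2 called lower and 3 higher. Aadat, of lysine and kynurenine breakdown, was 3.07-fold lower, at 12.59 after sham and 10.97 after injury. Bckdhb, of branched-chain amino acid breakdown, was 2.05-fold lower, with -0.93 for the other control, and Hpd, of tyrosine breakdown, had a ratio of -0.38, but 0.68 with that control. Kynu, of kynurenine breakdown, was 2.28-fold higher. Gldc, of the glycine cleavage system, was 2.62-fold higher, at 9.74 after sham and 11.12 after injury. Glud1, glutamate dehydrogenase, had 12.31 after sham and 13.42 after injury, 2.15-fold higher, with 0.66 for the other control. In glucose production G6pc, glucose-6-phosphatase, was 2.49-fold lower, with -0.95 for the other control, while the rate-limiting Pck1 had 13.35 after sham and 13.89 after injury, or 1.45-fold higher. Glycolysis had a median of -0.026 and 1 of 14 genes called, the phosphofructokinase Pfkp, 2.11-fold higher, with ratios from 0.092 to 0.11 on 2 other probe sets. Its ratio with the other control was 0.74. The hexokinase genes Hk1 and Hk2 had ratios of 0.091 and -0.29, and 0.11 and 0.11 with the other control. Arginine metabolism held larger differences. Arg2, the mitochondrial arginase, had 8.51 after sham and 12.10 after injury, 12.02-fold higher. Gatm, which starts creatine synthesis, had 12.63 after sham and 11.28 after injury, 2.55-fold lower. Ass1, which makes arginine in the proximal tubule, had 7.06 after sham and 5.84 after injury, 2.33-fold lower, with -0.48 for the other control. The Ass1 signal after injury lay just above the floor, and no other probe set of that gene was measured. In polyamine metabolism Srm, spermidine synthase, and Smox, spermine oxidase, were 2.07-fold and 2.12-fold higher. Both stood little past the call, and Srm had 0.75 with the other control.

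**Figure D3:**
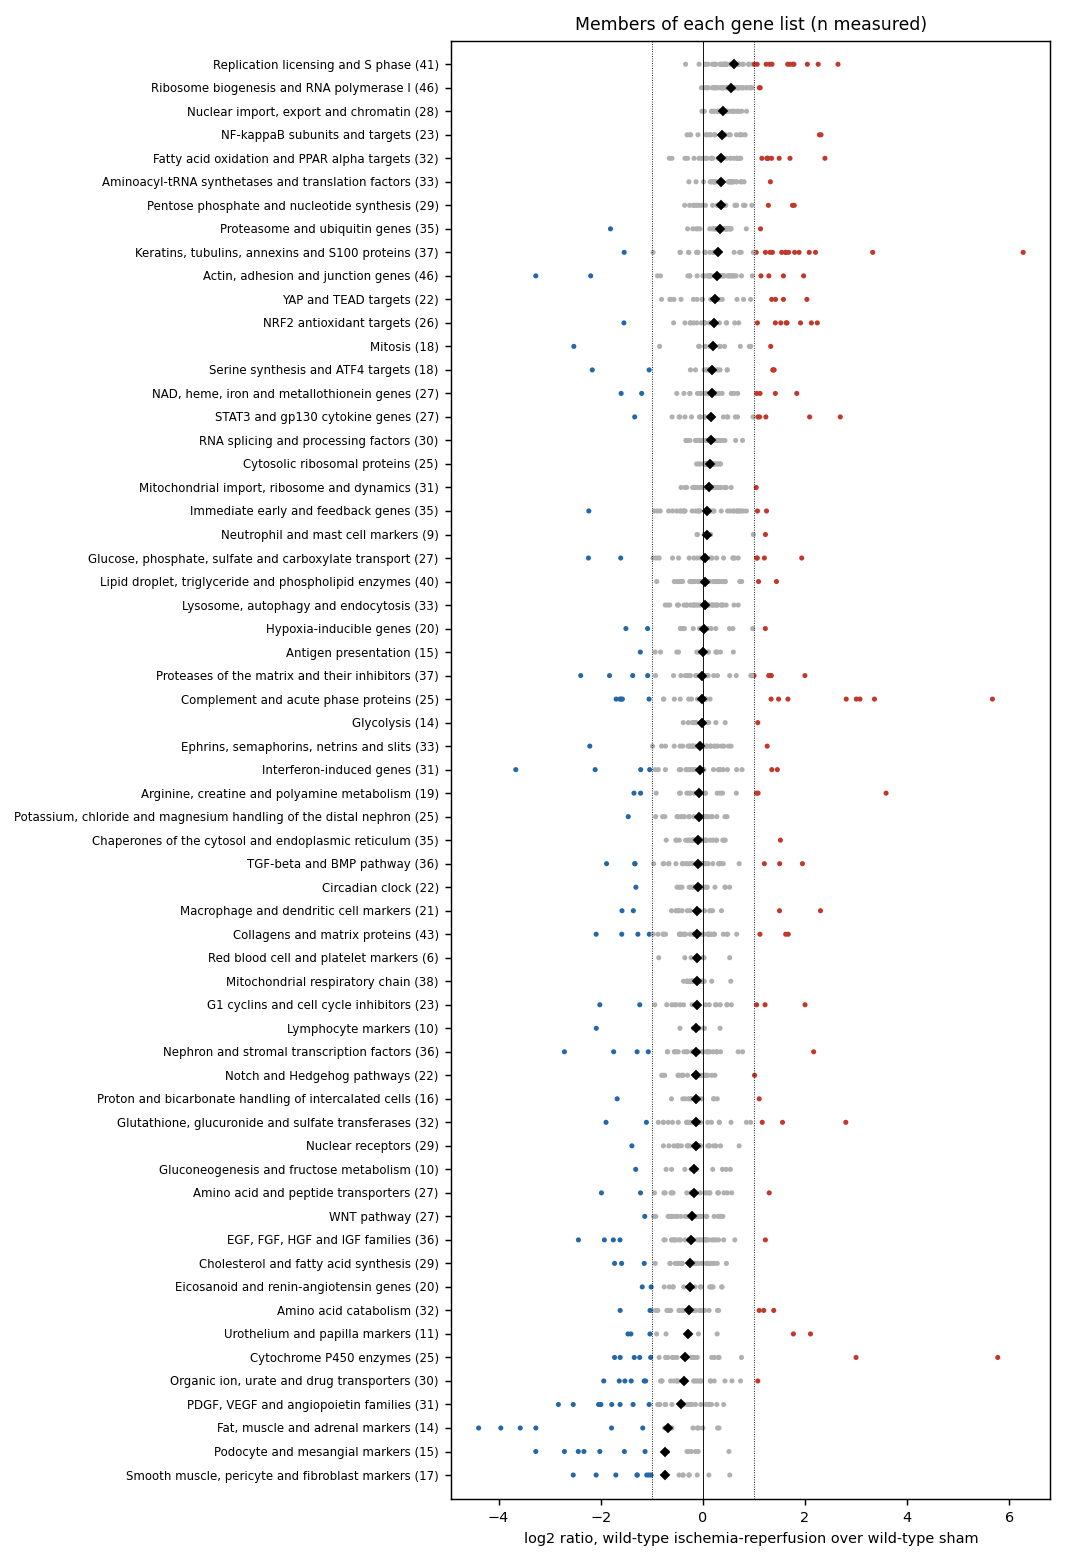
Log2 ratios of injured over sham for the measured members of all 61 gene lists, ordered by their medians. Each point is a gene, red at 2-fold or more higher and blue at 2-fold or more lower, and black diamonds are medians; S phase genes stand at the top with a median of 0.62, and stromal, podocyte and fat genes at the bottom.

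Among cytoskeleton families tubulins had a median above 0, while keratins and kinesins did not. The keratins had a median of -0.024 over 25 genes, with 2 called higher, Krt20 and Krt8, and the kinesins -0.074 over 26. Of 11 measured tubulin genes 10 were above 0 and 5 called, with a median of 0.72. Tubb2a had 9.82 after sham and 12.03 after injury, 4.61-fold higher, with a ratio of 0.89 on its other probe set. Tubb5 had 9.33 after sham and 11.13 after injury, 3.48-fold higher, and Tubb2b 7.54 after sham and 9.16 after injury, 3.09-fold higher. Tubb6 and Tubb4b, 2.57-fold and 2.06-fold higher, were under the call with the Tet2KO-labelled sham array, at 0.60 and 0.71. The former came with a ratio of 0.26 on its other probe set and the latter with ratios from 0.27 to 0.35 on 2 other probe sets. Microtubules are built from tubulin and are known to be lost and rebuilt in injured tubule cells.

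Actin binding, adhesion and junction genes had 38 of 46 members above 0 and a median of 0.27, with 4 called higher and 2 lower. Actn1, which bundles actin, had 9.13 after sham and 10.71 after injury, 2.99-fold higher, with ratios from 0.27 to 0.63 on 2 other probe sets. The tropomyosin gene Tpm4 had 9.96 after sham and 11.26 after injury, 2.45-fold higher, and Capg, which caps actin filaments, 8.37 after sham and 9.50 after injury, 2.20-fold higher. Cldn1, a claudin of tight junctions, had 7.49 after sham and 9.46 after injury, 3.92-fold higher, while the family of 17 claudins had a median of -0.032. Cdh1, the epithelial cadherin, had a ratio of 0.12, and Actb, beta-actin, 0.15. Myl9, the smooth muscle myosin light chain, stood against this direction at 9.50 after sham and 7.30 after injury, 4.58-fold lower. Anxa2, an annexin that links membranes to actin, was 2.92-fold higher, with a ratio of 0.98 on its other probe set, its partner S100a10 3.20-fold higher, with ratios from 0.54 to 1.55 on 2 other probe sets, and the galectins Lgals3 and Lgals1 4.24-fold and 2.49-fold higher. S100a6 was 3.07-fold higher over wild-type sham, and the ratio was 4.36 over the Tet2KO-labelled sham array. The calprotectin gene S100a8 was at least 2.34-fold higher and its partner S100a9 1.98-fold higher, just under the call, which it passed with the other control, at 1.17. Annexins did not share a direction. Anxa3 had 7.81 after sham and 11.14 after injury, 10.03-fold higher, Anxa13 was 2.91-fold lower, and the median of 10 was 0.067.

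Pathways of inflammation and repair held genes called higher beside others near 0. Among STAT3 and gp130 cytokine genes 5 of 27 were higher and 1 lower, and the list median was 0.15. Socs3, the feedback inhibitor of STAT3, had 6.66 after sham and 7.77 after injury, 2.16-fold higher, with ratios from 2.49 to 2.66 on 2 other probe sets. Clcf1, a cytokine that signals through gp130, was at least 6.46-fold higher, with ratios from -0.0088 to 1.37 on 2 other probe sets, and Stat3 itself 1.60-fold higher and not called, with ratios from -0.10 to 0.24 on 3 other probe sets. The acute phase gene Saa1 was at least 4.26-fold higher and Lrg1, another acute phase gene, 4.49-fold higher, from 5.80 to 7.96. Bcl3 was 2.35-fold higher and the cytokine gene Il34 2.11-fold higher; with the other control they had ratios of 0.91 and 0.95. Pim3, a kinase gene, was 2.52-fold lower, with ratios from -0.72 to -0.14 on 2 other probe sets, and at -0.96 with the other control. In the NF-kappaB list, with a median of 0.38, the receptor gene Tnfrsf12a, known as Fn14, had 8.64 after sham and 10.95 after injury, 4.97-fold higher, and the hyaluronan receptor Cd44 5.81 after sham and 8.10 after injury, 4.87-fold higher. The subunit Rela and the feedback inhibitor Nfkbia had ratios of 0.085 and -0.24, and 0.025 and 0.32 with the other control. Of the list of targets of YAP, a growth regulator that senses cell stretch, and other genes of its pathway, 4 of 22 members were higher. The list median was 0.23, and 9 members were below 0, the lowest Amotl1 at -0.81. Nuak2 had 10.57 after sham and 11.99 after injury, 2.68-fold higher, the coagulation starter gene F3 8.69 after sham and 10.04 after injury, 2.55-fold higher, and Ankrd1 was at least 2.99-fold higher, with a ratio of 0.60 on its other probe set. Ccn1, a matrix protein gene and early YAP target, was 4.10-fold higher, with ratios from 0.63 to 2.24 on 3 other probe sets, and its relative Ccn2 had a ratio of -0.18.

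Developmental pathways had medians slightly below 0. The WNT list had a median of -0.21, with 20 of 27 members below 0 and 1 called, the secreted inhibitor gene Sfrp2, at least 2.20-fold lower. Beta-catenin, Ctnnb1, had a ratio of 0.002 and the feedback target Axin2 -0.35. Notch and Hedgehog genes had a median of -0.14 and 1 call, Ihh, an epithelial Hedgehog ligand, 2.02-fold higher, with 0.40 for the other control. The receptor gene Notch1 had -0.47 and its ligand Jag1 -0.084. In the TGF-beta and BMP list the secreted antagonists Grem1 and Fst were higher. Gremlin 1, Grem1, had 6.36 after sham and 8.31 after injury, 3.86-fold higher, and follistatin, Fst, 8.36 after sham and 9.86 after injury, 2.84-fold higher. Bmp6 was 2.30-fold higher, with 0.95 for the other control. Id4 was 2.51-fold lower, Ltbp1, which stores TGF-beta in the matrix, 3.69-fold lower, and the co-receptor Tgfbr3 2.52-fold lower, with a ratio of -0.46 on its other probe set. The last 2 were under the call with the other control, at -0.81 and -0.70. The ligand Tgfb1 had a ratio of -0.22 and its receptor Tgfbr2 0.71, and the list's median was -0.10.

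Some genes of the IGF system were lower. IGF-binding proteins carry insulin-like growth factors and set how much is free, and all 7 measured genes of the family were below 0, with a median of -0.74 and 3 called. Igfbp3 had 10.06 after sham and 7.62 after injury, 5.41-fold lower, and Igfbp5 12.20 after sham and 10.27 after injury, 3.81-fold lower, with a ratio of -0.022 on its other probe set. Igfbp2 was at least 3.08-fold lower, but was at the floor in the Tet2KO-labelled sham array too, a ratio of 0. The ligand gene Igf1 had 7.95 after sham and 6.19 after injury, 3.37-fold lower, with ratios from -2.03 to -0.24 on 3 other probe sets. The other ligand and the receptors were near 0 or above it, Igf2 at -0.07, Igf1r at -0.042, Igf2r at 0.076 and the insulin receptor Insr at 0.41, the last with a ratio of -0.06 on its other probe set. With the Tet2KO-labelled sham array the family median was -0.25, and Igfbp3 and Igf1 had ratios of -3.28 and -1.63. In the wider growth factor list Nrg1, a ligand of ERBB receptors, was 2.34-fold higher, at 6.43 after sham and 7.66 after injury, while the receptor gene Egfr had a ratio of 0.11 and its ligand Hbegf 0.012. Egf, which the distal tubule makes, had 13.82 after sham and 12.36 after injury, 2.75-fold lower.

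Transcription factors of the nephron were mostly near 0. Nuclear receptors had a median of -0.14, with 22 of 29 below 0 and 1 call, the retinoic acid receptor gene Rarb, 2.62-fold lower, with -0.91 for the other control. Hnf4a, a master regulator of the proximal tubule, had 13.02 after sham and 13.12 after injury, and Pax8, a kidney lineage factor, 9.52 after sham and 9.66 after injury. Sox9, known from regenerating tubules, had 5.81 after sham and 6.50 after injury and was 1.61-fold higher, under the call. Of the 36 measured nephron and stromal factors 4 were lower and 1 higher, with a median of -0.13, or 0.023 with the other control. Among those lower were Tcf21, of podocytes and mesenchyme, by at least 6.55-fold, Meis2 by 2.10-fold, with ratios from -1.13 to -0.24 on 3 other probe sets, and Foxc2 by at least 2.44-fold, with -0.94 for the other control. Their relatives Meis1 and Foxc1 had ratios of -0.15 and 0.085. Bcl6, a repressor, had 11.05 after sham and 8.55 after injury, 5.66-fold lower, with a ratio of -1.32 on its other probe set. In the circadian clock list 1 of 22 genes was called, Tsc22d3, which glucocorticoids induce, 2.48-fold lower, with ratios from -1.53 to -0.37 on 2 other probe sets. The clock genes Arntl and Per1 had ratios of -0.18 and -0.46, and -0.19 and 0.44 with the other control. Immediate early genes had a median of 0.078 over wild-type sham and 0.42 over the Tet2KO-labelled sham array. Dusp1, a phosphatase that ends MAP kinase signals, was 4.70-fold lower, Klf6 2.37-fold higher, with ratios from 0.017 to 1.34 on 4 other probe sets, and Fosl1 at least 2.10-fold higher. Fos had a ratio of -0.67, and 0.90 with the other control. The log2 signals of Egr1, an early growth response factor, were 11.45 in wild-type sham, 10.85 after injury and 8.51 in the Tet2KO-labelled sham array.

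Vessel genes were lower where they were called. Of 31 members of the PDGF, VEGF and angiopoietin list 8 were lower and 0 higher, and the list median was -0.43. With the Tet2KO-labelled sham array 10 were lower and the median was -0.77. Emcn, a mucin of capillaries and veins, had 9.91 after sham and 7.08 after injury, 7.10-fold lower. Pdgfra, the PDGF receptor of fibroblasts, had 9.08 after sham and 6.54 after injury, 5.81-fold lower, with a ratio of -0.47 on its other probe set. Tek, the angiopoietin receptor, had 8.43 after sham and 6.43 after injury, 3.99-fold lower. These 3 are surface genes of endothelium or of the cells beside it. Plvap, of the diaphragms of fenestrated capillaries, was 3.07-fold lower, and Ehd3, of the glomerular endothelium, 2.07-fold lower, with a ratio of -0.64 on its other probe set. The apelin receptor gene Aplnr had 7.86 after sham and 5.82 after injury, 4.12-fold lower. Esm1, of activated and tip endothelium, was at least 3.44-fold lower. Ednrb, the endothelin B receptor, had 8.65 after sham and 7.28 after injury, 2.58-fold lower, with ratios from -0.85 to -0.76 on 2 other probe sets. Kdr, the main VEGF receptor, had 8.02 after sham and 7.18 after injury, 1.80-fold lower and not called, though -1.08 with the other control, and its ligand Vegfa 10.11 after sham and 9.68 after injury. Sema3g, a semaphorin of arteries, was at least 4.64-fold lower, and the ATP-sensitive potassium channel of mural cells was lower in both its parts, Kcnj8 by 2.32-fold and Abcc9 by 4.78-fold, with ratios from -0.67 to -0.44 on 2 other probe sets. Efnb2, the ephrin of arteries, had a ratio of -0.81, with a ratio of -1.13 on its other probe set. The semaphorin Sema3c, at 10.28 after sham and 11.54 after injury, was 2.39-fold higher, and 0.75 with the other control.

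Matrix genes went both ways. Small proteoglycans and other genes that fibroblasts are known to make were lower: Dcn, decorin, by 4.26-fold, Bgn, biglycan, by 2.07-fold, with ratios from -0.93 to -0.61 on 2 other probe sets, Ogn, osteoglycin, by at least 6.09-fold, with a ratio of -1.59 on its other probe set, Fbln5, of elastic fibres, by 3.01-fold, and the collagen gene Col14a1 by 2.41-fold, with a ratio of -0.66 on its other probe set. Prelp was at least 4.54-fold lower, with a ratio of -0.014 on its other probe set. Other collagen genes were higher: Col27a1 had 9.74 after sham and 11.42 after injury, 3.19-fold higher, Col18a1 9.56 after sham and 10.68 after injury, 2.17-fold higher, and Col8a1 was 3.08-fold higher, with ratios from 0.37 to 0.80 on 2 other probe sets. Over 32 collagen chains the median was -0.035, the fibrillar Col1a1 had a ratio of 0.49 and fibronectin, Fn1, 0.22. Col18a1 had 0.91 with the other control. Among matrix proteases and inhibitors Timp1, an inhibitor of metalloproteinases, was at least 3.995-fold higher, while its relative Timp2 had 9.64 after sham and 7.82 after injury, 3.55-fold lower, with ratios from -1.03 to -0.43 on 3 other probe sets. Adamts1 was 2.44-fold higher, with 0.73 for the other control, and Adamts5 2.59-fold lower, with ratios from -1.32 to -0.68 on 2 other probe sets. The gelatinase gene Mmp2 was 2.12-fold lower, with a ratio of -0.91 on its other probe set, the surface protease Adam8 2.002-fold higher, and Mmp7, matrilysin, had a ratio of 0.21. Serping1, which inhibits the first complement proteases, had 11.10 after sham and 8.71 after injury, 5.25-fold lower. The secreted inhibitors Slpi and Wfdc2, made by epithelia, had 7.23 after sham and 8.56 after injury and 10.73 after sham and 12.07 after injury, or 2.51-fold and 2.53-fold higher. Beside these, the list of smooth muscle, pericyte and fibroblast markers had 8 of 17 members lower and a median of -0.75, and its summed linear signal was 7556 after sham and 3773 after injury. With the Tet2KO-labelled sham array as control 4 of 17 were lower and the median was -0.42, and the sum on that array was 5647. The sum is weighted to the genes of highest signal and counts markers under the floor. Among the markers Cd34, Rgs5 and Mgp were 3.26-fold, 2.45-fold and 2.08-fold lower, Rgs5 with ratios from -1.29 to -0.93 on 2 other probe sets and -0.91 with the other control. The contractile genes Tagln, Myh11 and Acta2 had ratios of -1.10, -1.01 and -0.75, and -0.51, -0.20 and 0.088 with the other control. Gsn, gelsolin, was 2.43-fold lower, with -0.39 for that control. The part of these cells in the matrix values was not tested.

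Podocyte and mesangial markers gave 7 of 15 lower and a median of -0.74, or -0.80 with the other control. Podxl, the sialomucin of the podocyte surface, had 9.59 after sham and 7.15 after injury, 5.42-fold lower, with a ratio of -0.37 on its other probe set, and the phosphatase gene Ptpro 8.18 after sham and 5.85 after injury, 5.02-fold lower. Cdkn1c, named above among the cell cycle inhibitors, is known from podocytes too. Nephrin, Nphs1, had a ratio of -0.31. Synpo, an actin organiser of podocyte foot processes, had 8.53 after sham and 6.996 after injury, 2.90-fold lower, with a ratio of -0.13 on its other probe set. Plce1 had 7.69 after sham and 6.56 after injury, 2.19-fold lower, with -0.95 for the other control. Itga8, which mesangial cells carry, was 9.66-fold lower, with a ratio of -0.08 on its other probe set. The differing probe sets of Podxl, Synpo and Itga8 leave the size of these decreases uncertain.

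Immune genes were called in both directions. The complement starter genes C1qa, at 7.85 after sham and 6.23 after injury, and C1qb, at 7.53 after sham and 6.47 after injury, which macrophages make, were 3.09-fold and 2.08-fold lower, the latter with ratios from -0.13 to -0.028 on 2 other probe sets. The macrophage growth factor receptor Csf1r had 11.34 after sham and 9.98 after injury, 2.57-fold lower, with ratios from -1.17 to -0.84 on 2 other probe sets, and lysozyme Lyz2 9.06 after sham and 7.47 after injury, 2.996-fold lower. Cd14, a receptor for bacterial lipid, had 7.29 after sham and 8.79 after injury, 2.83-fold higher. Cd68, a lysosomal protein of macrophages, was at least 4.94-fold higher, and Adgre1, which encodes F4/80, had a ratio of -0.47. Over the 21 measured macrophage and dendritic cell markers the median was -0.11, with 2 higher and 2 lower. The summed linear signal of the matched macrophage and dendritic cell markers was 5907 after sham, 4292 after injury and 6057 in the Tet2KO-labelled sham array. Such a sum is weighted to the genes of highest signal, which among the markers named here is Csf1r. It also counts markers under the floor, with 20 of 27 over it after sham and 18 after injury, so it does not show a loss common to the markers. The same sums, in that order, were 1042, 1207 and 1082 for neutrophil and mast cell markers and 1872, 1580 and 2009 for lymphocyte markers. Antibody genes were lower: Igha, the IgA heavy chain, had 9.35 after sham and 7.10 after injury, 4.75-fold lower, and Jchain, which joins IgA and IgM, was at least 4.25-fold lower. The T cell gene Cd3e had a ratio of -0.12. Among red cell genes Alas2 had -0.86 and the iron carrier Slc25a37 0.53, with no call. H2-Aa, of class II antigen presentation, was 2.34-fold lower, with ratios from -0.995 to -0.40 on 3 other probe sets, and Cd74 had 10.63 after sham and 9.80 after injury.

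The interferon list had no common direction, with a median of -0.061, 2 members higher and 4 lower of 31. The interferon-induced transmembrane proteins, which keep viruses from fusing, were lower, with 3 of 4 called: Ifitm1 at 9.85 after sham and 7.74 after injury, Ifitm3 at 10.32 after sham and 9.10 after injury and Ifitm2 at 9.66 after sham and 8.62 after injury. Ifitm2 had a ratio of -0.84 with the other control, and the family median ran from -1.15 to -0.27 over the alternative settings. The 5 guanylate-binding proteins, which interferon also induces, were all above 0, with Gbp3 at 7.35 after sham and 8.70 after injury, 2.55-fold higher and 0.90 with the other control. Ifit1 had a ratio of -0.31. Ifi27l2a had 9.90 after sham and 6.24 after injury, 12.7-fold lower, and the chemokine gene Cxcl10 was 2.75-fold higher. In the complement and acute phase list 8 of 25 members were higher and 5 lower. The 3 fibrinogen chains Fga, Fgb and Fgg, clotting proteins mainly of the liver, had log2 ratios of 2.81, at least 3.005 and 3.08. The complement protease gene C1s1 was 3.25-fold lower. Ceruloplasmin, Cp, the copper carrier of plasma, had 9.66 after sham and 11.14 after injury, 2.79-fold higher, with ratios from -1.25 to 1.70 on 6 other probe sets, and clusterin, Clu, 10.86 after sham and 12.19 after injury, 2.52-fold higher. Transthyretin, Ttr, had 12.21 after sham and 10.64 after injury, 2.98-fold lower, with -0.30 for the other control, and haptoglobin, Hp, 3.03-fold lower but 0.31 with that control.

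**Figure D4:**
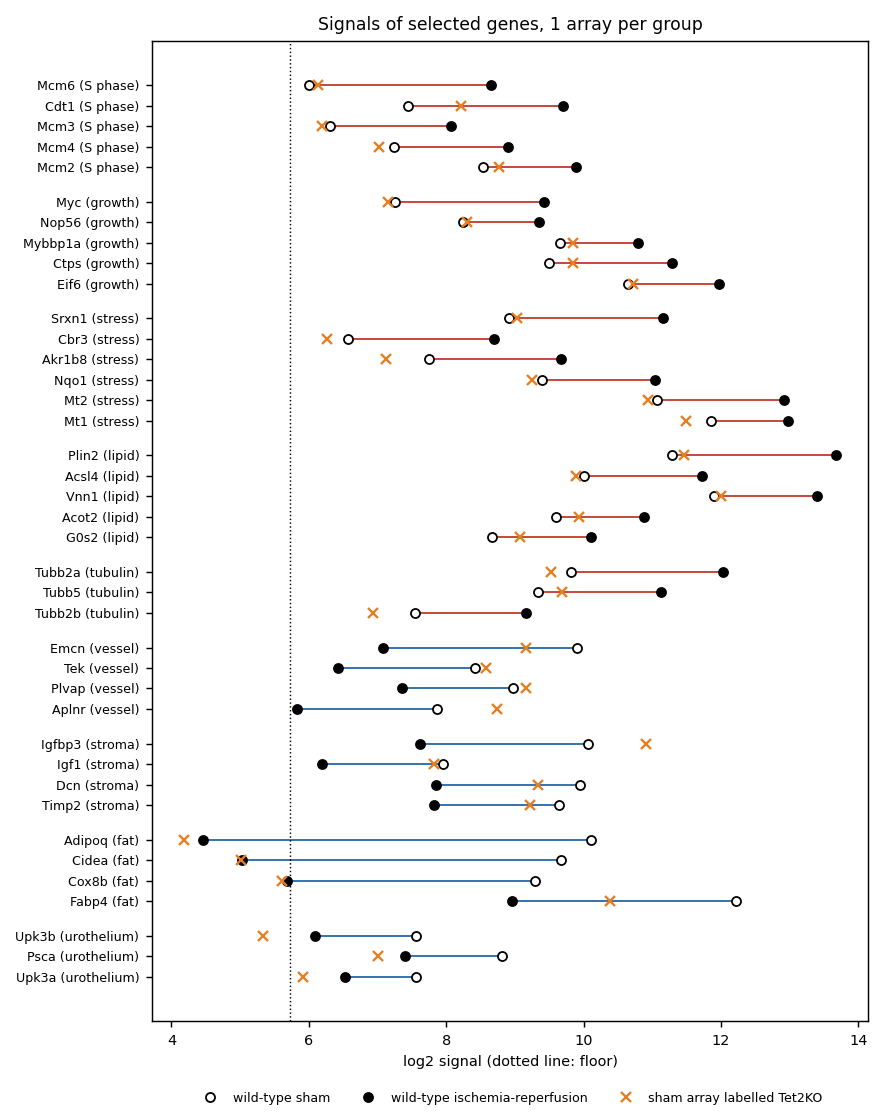
Log2 signals of selected genes of 9 groups on the wild-type sham array (open circles), the wild-type injured array (filled circles) and the Tet2KO-labelled sham array (crosses), with the floor as a dotted line. For S phase, growth, stress, lipid and vessel genes the cross lies nearer the open circle than the filled one, while for the fat genes Adipoq and Cidea and the urothelial genes it lies with or beyond the filled circle.

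Fat and urothelial genes depended on the control. The wild-type sham array held fat RNA: Adipoq, the hormone of fat cells, had 10.11, against 4.46 after injury and 4.19 in the Tet2KO-labelled sham array. Ucp1, the heat-making protein of brown fat, had 7.51, 5.01 and 4.97 in the same order. With the latter array as control the ratio of either gene was 0, both arrays being at the floor. Cox8b and Cox7a1, respiratory chain forms of fat and muscle, were at least 11.9-fold and 2.26-fold lower, with 0 and -0.78 for that control. The fatty acid carrier gene Fabp4 was 9.65-fold lower, with ratios from -3.09 to -0.39 on 2 other probe sets. Fabp4 was called lower with that control too, at -1.43. The summed linear signal of the fat, muscle and adrenal markers was 9116 in wild-type sham, 1806 after injury and 2765 in the other sham array, with 14, 8 and 8 of 20 markers over the floor. Fat around the kidney is a known source of such RNA, and its part in genes shared by fat and kidney was not tested. Car3, a carbonic anhydrase abundant in fat and muscle, had 12.37, 7.43 and 10.49 in that order and was lower with either control, with ratios from -2.62 to -1.55 on 2 other probe sets. Cck was lower with either control too, at least 7.56-fold over wild-type sham and at -1.24 over the other. Lepr, the leptin receptor, was at least 4.46-fold lower, with ratios from -1.94 to -0.80 on 2 other probe sets, and at -1.06 with the Tet2KO-labelled sham array. The uroplakin genes Upk3b and Upk3a and the gene Psca, which mark the lining of the renal pelvis, were 2.76-fold, 2.05-fold and 2.66-fold lower over wild-type sham but had ratios of 0.37, 0.60 and 0.40 over the other sham array. Sptssb was 4.93-fold lower over wild-type sham and at 1.42 over the other, and Elf5 3.36-fold lower, with a ratio of -0.038 on its other probe set, and at 0.55. Upk1a had a ratio of -0.086 over wild-type sham and 0.19 over the other. Upk1b had -0.91 and 0.62, with ratios from -1.11 to -0.31 on 3 other probe sets over wild-type sham. The small proline-rich protein gene Sprr1a was higher with both, at 2.11 and 5.22, and Sprr2f was at least 3.42-fold higher.

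**Figure D5:**
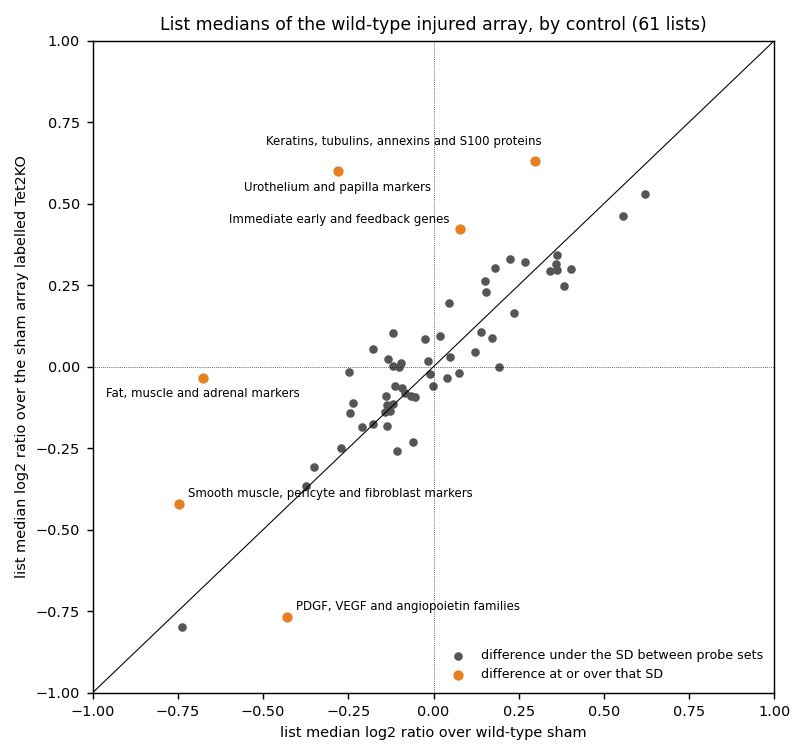
Median log2 ratio of each of the 61 lists for the injured wild-type array, over wild-type sham on the x axis and over the Tet2KO-labelled sham array on the y axis; both use the same injured array. Orange points are the 6 lists whose medians differ by the SD between probe sets or more, among them fat, muscle and adrenal markers at -0.68 and -0.034 and urothelium markers at -0.28 and 0.60.

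Outside the lists, the largest increases held genes of several kinds. Pappa, a protease that cuts IGF-binding proteins, had 6.97 after sham and 8.88 after injury, 3.78-fold higher, with a ratio of 0.94 on its other probe set. Steap1, a metalloreductase gene, had 7.77 after sham and 9.68 after injury, 3.76-fold higher, with a ratio of 2.72 on its other probe set. Slco2a1, the prostaglandin transporter, had 8.57 after sham and 10.46 after injury, 3.71-fold higher, with ratios from 0.55 to 0.65 on 3 other probe sets. Cxcl1, a neutrophil chemokine, had 8.19 after sham and 10.49 after injury, 4.92-fold higher, and Mlkl, the executor of necroptosis, was at least 4.68-fold higher. Fam25c had 8.76 after sham and 10.95 after injury, 4.55-fold higher. Isg20, an RNA exonuclease, was 4.21-fold higher and Nek6, a mitotic kinase gene, 3.69-fold higher, with ratios from 0.26 to 1.71 on 2 other probe sets. The acetylcholine receptor subunit gene Chrnb1 had 6.15 after sham and 8.17 after injury, 4.05-fold higher, and the adhesion gene Nrcam was at least 4.44-fold higher, with a ratio of 0.031 on its other probe set. The largest decreases held Mep1b, a meprin protease of the brush border, at 12.45 after sham and 10.14 after injury, 4.96-fold lower, and Upp2, a uridine phosphorylase, at least 6.80-fold lower. Tspan13, a tetraspanin, had 10.09 after sham and 7.88 after injury, 4.62-fold lower, and the lipid transporter genes Abca9 and Abca8a were at least 4.29-fold and 4.26-fold lower. Fam151a had 10.58 after sham and 8.26 after injury, 4.995-fold lower, and Rnase4 11.96 after sham and 9.35 after injury, 6.14-fold lower. Ndrg4 was 5.29-fold lower over wild-type sham and at -0.12 over the Tet2KO-labelled sham array. Spon1 was 4.31-fold lower, with a ratio of -0.60 on its other probe set, and -0.87 with the other control, and Syn3 5.25-fold lower, with ratios from -3.52 to -0.39 on 2 other probe sets. C1qtnf3, a secreted relative of complement C1q, had 11.05 after sham and 8.80 after injury, 4.77-fold lower, and Acpp, a phosphatase, was 4.29-fold lower and -0.71 with the other control.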

How the data were processed

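The authors deposited log2 signals of 45037 probe sets of an Affymetrix mouse array, 1 value per array, and these were used as deposited. MAS5 is named in the submitters' processing notes, without a version, and the scaling is not given in the sources used here. Per the labels' protocols RNA was taken with Trizol and labelled with biotin. Symbols came from the array's annotation: 34945 probe sets had exactly 1, 932 had several and 9160 were not listed there. Each gene was read from its probe set with the highest mean signal over the arrays, and cross-hybridising probe sets (suffix _x_at) served only 100 genes that had none else. Ratios were computed in Python 3.11.15 with pandas 2.3.3 and NumPy 2.4.6, and the procedure was tested on simulated data. The simulation changed only genes well above the floor and did not model error between arrays or mice, so it does not bear on calls near the floor. The column medians were 6.33 after sham and 6.28 after injury, with 60.4% and 59.8% of probe sets over the floor. The number of arrays limits the precision, and no p-value is given.

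The 61 gene lists held 1879 symbols, of which 1743 were matched, 8 of them through an older symbol, and 1600 measured. The comparison, the lists and the families were chosen with earlier results of these data known. Genes were named by a rule: in each list 2 anchors whatever their value and up to 8 called members in each direction, and outside the lists the 20 highest and 20 lowest. Where a list had no call, its highest and lowest members could be named. Rfc3, Fen1 and Lig1 were called but lay beyond that number, and a few further genes of families and lists were named after their values were seen. Other probe sets of a gene are given where they differ from it by more than 1 on the log2 scale or fall on the other side of the call, and for a gene under the call whose ratio passes the SD between probe sets also where they have the opposite sign. Values with the Tet2KO-labelled sham array are given beside a gene whose call or, past that SD, whose sign they change. The 8 alternative settings were the median over probe sets, plain _at probe sets alone, a floor at the 20th percentile, a pseudocount of 32, both arrays over the floor, quantile normalization, centring on the median, and the Tet2KO-labelled sham array as control.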

Additional observations from a re-analysis of the deposited data

Results flagged for a closer look

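In 3 of the gene lists the median went one way in the wild-type pair and the other way in the pair labelled Tet2KO, taken as injured over sham within each label. Smooth muscle, pericyte and fibroblast markers had a median log2 ratio of -0.75 in wild type and 0.40 in the Tet2KO pair. Fat, muscle and adrenal markers had -0.68 and 0.34, and urothelium and papilla markers -0.28 and 0.88. With 1 array per group these differences were not tested. All 3 are lists of cells other than the tubule, and their summed linear signals in the sham arrays were 7556 and 5647, 9116 and 2765, and 2425 and 929.9, wild type first. On the wild-type injured array the sums were 3773, 1806 and 3330.5, in the same order of lists. The urothelium and papilla sum was thus higher after injury than after sham in wild type, while its list median was below 0.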

How the results depend on the processing

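Over the 8 alternative settings the genes called higher numbered from 221 to 313 and those called lower from 227 to 346. Of the list medians 478 values moved by less than the SD between probe sets, 9 by more, and 1 both passed that SD and took the opposite sign. Medians nearer 0 changed sign too: 18 of 61 list medians did so under at least 1 setting, 12 of them with the Tet2KO-labelled sham array as control. With that control the medians were 0.42 for immediate early genes, -0.77 for PDGF, VEGF and angiopoietin genes, 0.63 for keratins, tubulins, annexins and S100 proteins, -0.42 for smooth muscle, pericyte and fibroblast markers and -0.034 for fat, muscle and adrenal markers. That of urothelium markers reversed to 0.60. A floor at the 20th percentile gave -1.09 for podocyte and -0.25 for fat markers, requiring both arrays over the floor gave -0.10 for fat markers, and plain _at probe sets alone gave -1.06 for smooth muscle, pericyte and fibroblast markers. Of the named genes past the call 12 reversed. With the Tet2KO-labelled sham array the ratios were -0.15 for Asns, 0.10 for Cdkn2b, 0.55 for Elf5, 0.0035 for Ephx1, 0.10 for Gsta4, 0.31 for Hp, 0.45 for Nupr1, 0.40 for Psca, 1.42 for Sptssb, 0.60 for Upk3a and 0.37 for Upk3b. Sqstm1 had -0.032 on plain _at probe sets alone. The cause was not tested. Of 353 named genes measured with the Tet2KO-labelled sham array, called or not, 26 had the opposite sign with that control, among them Egr1, Fos, Hspa1b, Hpd and Upk1b, at 2.35, 0.90, 1.57, 0.68 and 0.62. Of 36 family medians 11 changed sign under at least 1 setting, by more than the SD that of annexins alone, from 0.067 to -0.29 on plain _at probe sets. No paired analysis was possible because each group had 1 array and the labels give no shared replicate numbers. The SD between probe sets does not cover differences between mice or error between arrays, and signals near the floor bound ratios from below.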

Other observations

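Gene families outside the lists were mostly near 0. DEAD-box helicases, which unwind RNA, had a median log2 ratio of 0.23 over 32 genes and 1 call, Ddx39a, at 9.44 after sham and 10.45 after injury, with ratios from 0.70 to 0.90 on 3 other probe sets and 0.81 with the Tet2KO-labelled sham array as control. Aldo-keto reductases had 1 member higher and 2 lower of 14: Akr1c14 had 13.11 after sham and 11.95 after injury, 2.24-fold lower, and Akr1d1 was 2.10-fold lower. Among 14 carbonic anhydrases Car5a, the mitochondrial form, was 2.15-fold lower. Mitochondrial carriers included Slc25a20, which brings acylcarnitines in, 2.16-fold higher and 0.94 with that control, and Slc25a25, 2.03-fold higher, with ratios from -0.23 to 1.31 on 2 other probe sets, beside Slc25a24. Of 49 genes with symbols of potassium channels or their interacting proteins 33 were below 0, with a median of -0.11. Kcnip2, for an interacting protein, was 2.21-fold higher, and the channel gene Kcnj8, named above, was the 1 called lower. No call fell among 24 Hox genes, which keep positional identity, or 19 subunits of the V-type proton pump, with medians of -0.081 and -0.031. With 1 array per group these are values without a test.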
